A study of Homo sapiens with 6 samples.

Results

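A few short stretches of the hg19 genome, taken here as resembling ribosomal RNA, held between 3.88 and 18.8% of the crosslink events of each iCLIP library of the series. They lie in 9 strand-specific windows of 10 kb, out of 174732 such windows with at least 1 event in the 6 libraries. The windows start at position 9820001 on the plus strand of chromosome 21, 133010001 on the minus strand of chromosome 2, 20700001 on the plus strand of chromosome 12, and 71140001 on the plus strand of chromosome 5. The others start at 33960001 on the plus strand of chromosome 16, 91850001 on the minus strand of chromosome 1, 79180001 on the plus strand of chromosome 9, 127650001 on the minus strand of chromosome 12, and 108290001 on the plus strand of chromosome X. They were picked for their high level in these same libraries. Their level and the difference in level between the groups are therefore given as a description, and the calls of the fit over all windows, printed for them further on, are not read as a test of it. The windows held 639279 events over the 6 libraries. No hg19 sequence or annotation was used here, so their likeness to ribosomal RNA, and the gene, exon or intron at each position, were not analysed here.

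Ribosomal RNA is the most abundant RNA of a cell. RNA polymerase I transcribes it in the nucleolus as one long precursor, which is cut and trimmed to the 18S, 5.8S and 28S rRNAs, and spacers between them are degraded. The repeat arrays lie on the short arms of the acrocentric chromosomes, which genome builds of this age mostly leave out, while broken copies of the rRNA genes are scattered over many chromosomes. In iCLIP, ultraviolet light joins proteins to the RNA they touch, and reverse transcription tends to stop at the peptide left on the RNA, so a cDNA end marks the contact to the nucleotide. QKI-5 is the nuclear form of Quaking, a STAR-family protein that binds pre-mRNA and regulates splicing.

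BEAS2B, a cell line from the epithelium of the human bronchus, was irradiated with 150 mJ/cm2 of ultraviolet light. In 3 libraries QKI-5 was pulled down with an antibody, 3 control libraries had none, and cells, medium and irradiation were shared. The labels give every sample the same protocol text, which names the antibody step for controls too, so the groups rest on the titles and the antibody field. Nothing says that replicates were separate cultures, and the spread between them may be technical. The QKI-5 libraries held 2143279 to 7283982 events and the controls 29810 to 137926, so 1 event is 7.25 to 33.5 EPM in controls, where EPM counts events among 1000000 of that library, and 0.137 to 0.467 EPM in QKI-5 libraries. Events were listed on 25 chromosomes (1 to 22, X, Y and the mitochondrial genome); unplaced contigs were not analysed here.

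In every replicate number the 9 windows took a smaller part of the QKI-5 library than of the control. They held 12.1, 18.8 and 11.1% of events in control replicates 1, 2 and 3, and 3.88, 8.69 and 4.92% in QKI-5 replicates 1, 2 and 3. All QKI-5 shares lay below all control shares. The means were 14.0 ± 4.21% and 5.83 ± 2.53% (SD, n = 3 each), a ratio of QKI-5 to control of 0.416. By replicate number the ratio was 0.321, 0.461 and 0.443. Control replicate 2 and QKI-5 replicate 2 had the highest share of their group. Leaving out the first gave a ratio of 0.502, and leaving out the second gave 0.314. In absolute numbers the order was the opposite, with 142286 to 282804 events in the QKI-5 libraries against 3316 to 16697 in the far smaller controls.

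**Figure D1:**
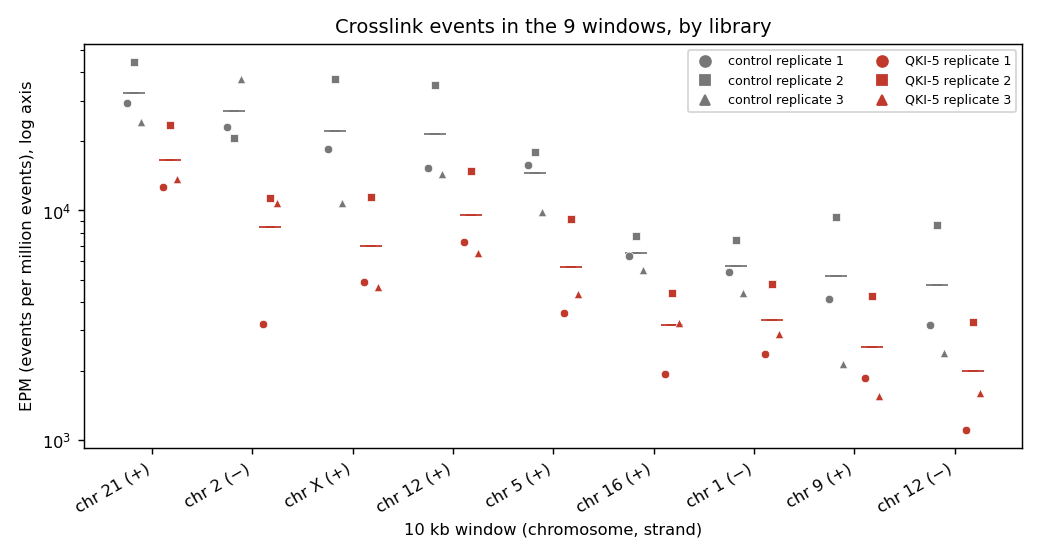
Level of each window in each library, in EPM on a log axis, with windows ordered by their control mean. Each symbol is 1 library (grey, control; red, QKI-5) and the bar is the group mean. The QKI-5 mean lies below the control mean in all 9 windows, and the groups do not overlap in 4 of them.

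The chromosome 21 window was the strongest in both groups. It held 29277, 44219 and 24388 EPM in controls 1, 2 and 3, and 12622, 23467 and 13699 EPM in QKI-5 replicates 1, 2 and 3. All 3 QKI-5 values were lower than the lowest control, and the control mean was 1.97-fold higher. On chromosome 2 the controls reached 23136, 20615 and 37437 EPM, and the QKI-5 libraries 3203, 11311 and 10786 EPM. QKI-5 replicate 1 was low there, and by replicate number the control was 7.22, 1.82 and 3.47-fold higher. On chromosome 5 the controls reached 15748, 17914 and 9862 EPM, against 3589, 9136 and 4337 EPM with the antibody. On chromosome 16 they reached 6344, 7740 and 5502 EPM, against 1932, 4376 and 3220 EPM. In both of these windows, too, the groups did not overlap.

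In the other 5 windows QKI-5 replicate 2 exceeded at least 1 control. On chromosome X the controls reached 18582, 37420 and 10735 EPM, against 4880, 11481 and 4634 EPM with the antibody, with QKI-5 replicate 2 just above control replicate 3. The plus-strand window of chromosome 12 held 15291, 35202 and 14425 EPM against 7256, 14928 and 6524 EPM. Here control replicate 2 stood far above the other controls, while QKI-5 replicate 2 exceeded only control replicate 3. The windows of chromosomes 1 and 9 and the minus-strand window of chromosome 12 were the weakest 3 in control mean. They held 5732 ± 1558, 5199 ± 3729 and 4722 ± 3389 EPM in controls against 3343 ± 1255, 2550 ± 1468 and 1988 ± 1124 EPM in QKI-5 libraries (SD, n = 3). The ratio of means over the 9 windows ran from 0.312 on chromosome 2 to 0.583 on chromosome 1, with a median of 0.442.

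An order with every QKI-5 value below every control was found in 4 of 9 windows, beside 29.3% of the 4003 windows of the genome that had an event in all 6 libraries. A single event in a control is already 7.25 to 33.5 EPM, which bears on that share. Among the 12 other windows with at least 20 events in every library, 5 showed this order. QKI-5 replicate 2 was the highest QKI-5 library in all 9 windows. Control replicate 2 was the highest control in 8 of 9, and control replicate 3 was highest on chromosome 2. Replicate number 2 led both groups in 5 of the 12 other windows.

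When all windows were fitted together, none of the 9 was called. The quasi-likelihood test of edgeR, with TMM scaling, called 0 of 9 lower and 0 of 9 higher at an adjusted p under 0.05, beside 0.107% of 29960 tested windows called lower and 0.754% called higher. Since the windows were chosen on these libraries, nothing is read from this count. An unadjusted p under 0.05 was found in 0 of 9 with TMM scaling and in 7 of 9 with library totals, the scale of the EPM values. Over all 29960 tested windows it was found in 5522 with TMM scaling and in 3993 with library totals. None of the 9 was called after adjustment on either scale, and nothing is read from these counts either. With TMM scaling the log2 fold changes of the 9 ran from -0.91 on chromosome X to -0.05 on chromosome 1, with a median of -0.36. The median of all tested windows was 0.78. With library totals in place of TMM the median of the 9 was -1.18 and that of all windows was 0.22, and the split of calls over all windows went from 226 higher and 32 lower to 23 higher and 58 lower. The DESeq2 Wald test called 0 of 9 too, beside 0.501% of all windows called lower and 1.44% called higher. Without QKI-5 replicate 2, edgeR called 1 of 9 lower, that of chromosome X, and 0 higher, beside 9.36% and 10.7% of the 951 windows tested in that fit. In 7 of the 9 windows the fitted fold change turned positive in at least 1 alternative fit, while those of chromosomes 2 and X stayed negative in all 12 alternatives.

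Within each window most events were packed into a small part of the 10 kb. In the chromosome 5 window all 61462 events of the 6 libraries lay between 71146740 and 71146916, a stretch of 177 nt in which 168 positions were used. In the chromosome X window 99.3% of the mean signal fell into 110 nt (108297702 to 108297811), and every one of those 110 positions carried an event in some library. In the plus-strand window of chromosome 12 the figure was 99.99% in 130 nt (20704355 to 20704484), and on chromosome 1 the stretch from 91852804 to 91853151, 348 nt, held nearly all events. Stretches here are positions no more than 15 nt apart, joined.

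The other windows held several stretches. On chromosome 2 the main stretch was 55 nt (133012574 to 133012628) with 84.8% of the mean signal, followed by 7.01% at 133012855 to 133012922 and 5.22% at 133013161 to 133013186. QKI-5 replicate 1 differed from the rest there, with 54.7% in the main stretch and 24.9% in the next one, while the other QKI-5 libraries had 78.3 and 85.2% and the controls 77.0 to 93.3% in the main stretch. On chromosome 9 a stretch of 50 nt (79186652 to 79186701) held 81.9% and a neighbour of 139 nt held 17.6%. The minus-strand window of chromosome 12 had 78.6% in 67 nt (127650600 to 127650666) and 14.9% in 79 nt just before it in coordinate order. The chromosome 16 window was the most divided, with 7 stretches of at least 1% each, led by 32.9% at 33963878 to 33963943 and 25.0% at 33963018 to 33963189. The chromosome 21 window combined a stretch of 905 nt (9826642 to 9827546, 97.3%) with one of 1015 nt (9825437 to 9826451) that carried 2.44%.

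The shortest interval that held 50% of the mean signal was 2 nt on chromosome 2, 4 nt in the minus-strand and 8 nt in the plus-strand window of chromosome 12, 5 nt on chromosome X and 9 nt on chromosome 5. It was 20 nt on chromosome 9, 95 nt on chromosome 1, 149 nt on chromosome 21 and 518 nt on chromosome 16. The narrow intervals do not hold all strong positions. On chromosome X the position 108297778, outside its 5 nt interval, held 13.7 to 25.1% of the window's events in the 6 libraries. The interval for 90% was 311 nt on chromosome 2, 127 and 43 nt in the minus-strand and plus-strand windows of chromosome 12, 26 nt on chromosome X and 68 nt on chromosome 5. It was 142 nt on chromosome 9, 225 nt on chromosome 1, 440 nt on chromosome 21 and 858 nt on chromosome 16. In the chromosome 1 window 21 positions were needed to reach 50%, and on chromosome 2 only 2.

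**Figure D2:**
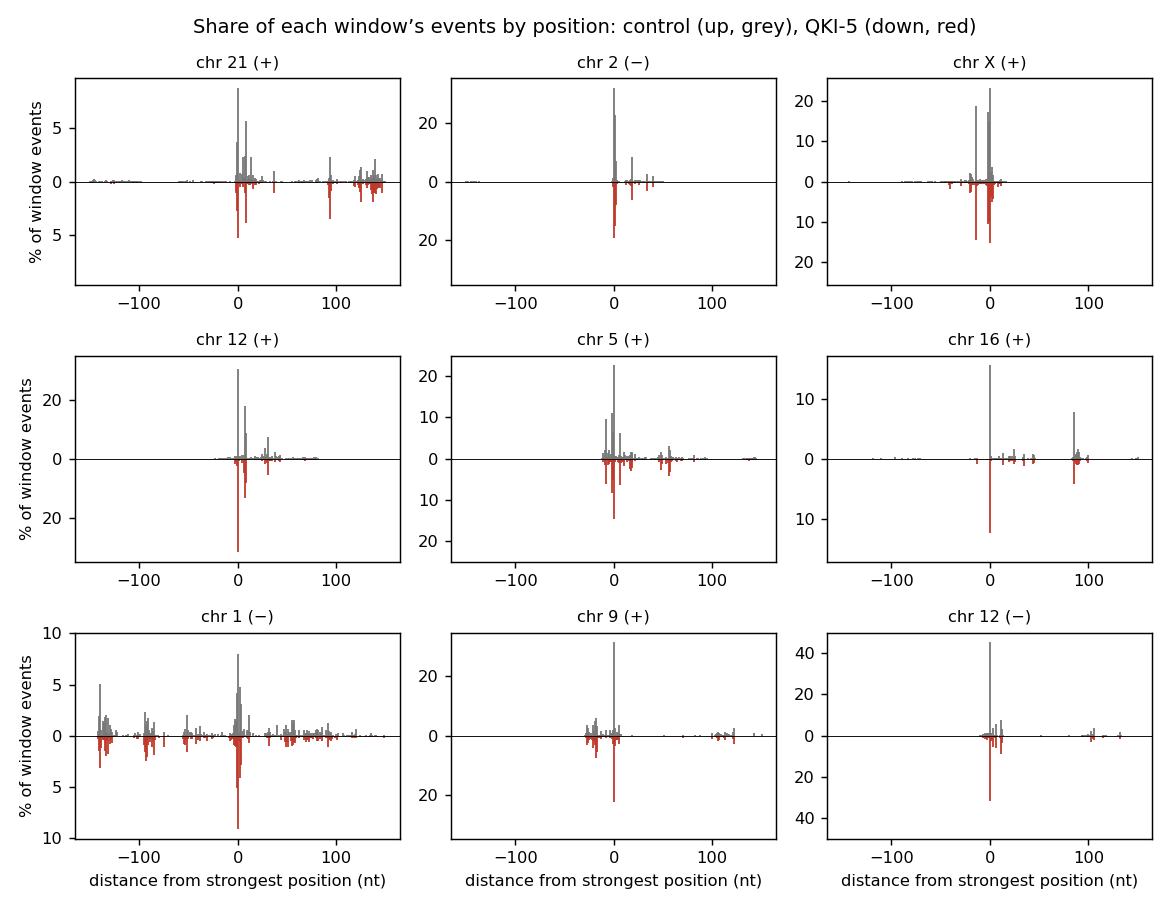
Profile of each window around its strongest position, drawn in the direction of transcription. The x axis is the distance in nt, drawn to 150 nt on either side. The y axis is the mean percentage of the window's events at each position, controls upward in grey and QKI-5 downward in red. Within that range the largest spike stands at the same position in both groups. In the windows of chromosomes 2, X, 5, 9 and 12 a few positions carry most of the signal. Strong signal farther away is not drawn. It includes 9827332 on chromosome 21, the position of that window with the highest QKI-5 mean (7.86%), and the stretch at 33963878 to 33963943 on chromosome 16.

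The strongest position, by mean EPM over the 6 libraries, was often the same in every library. At 133012624 on chromosome 2, the strongest of all, the level was 7787, 5353 and 13653 EPM in controls 1, 2 and 3, and 370, 2458 and 2693 EPM in QKI-5 replicates 1, 2 and 3. All QKI-5 values lay below the lowest control, and QKI-5 replicate 1 was the lowest by far. Its neighbour at 133012623 was the third strongest position of the 9 windows, with 3882 to 11808 EPM in controls and 365 to 1963 EPM in QKI-5 libraries. The second strongest was 20704380 on the plus strand of chromosome 12, where controls reached 4850, 12682 and 3388 EPM, against 1818, 5610 and 2126 EPM with the antibody. These groups overlapped, since QKI-5 replicate 2 exceeded controls 1 and 3. The fourth and the fifth were 108297792 and 108297778 on chromosome X, with means of 2891 and 2851 EPM.

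In 4 windows all 6 libraries had the same strongest position, namely 133012624 on chromosome 2, 20704380 and 127650652 on chromosome 12, and 79186681 on chromosome 9. On chromosome 5 the position 71146752 led in 5 libraries, and QKI-5 replicate 3 had its highest count 2 nt away, at 71146750. On chromosome X the lead was divided, with 108297792 highest in 3 libraries and 108297778 in the other 3, in both groups. On chromosome 1 the position 91853008 led in 4 libraries and on chromosome 16 the position 33963141 led in 3. The chromosome 21 window had no common leader. Position 9827165 led in controls 1 and 2, 9827332 in control 3 and QKI-5 replicate 3, 9827259 in QKI-5 replicate 1 and 9827005 in QKI-5 replicate 2.

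The share of a window's events at its strongest position shows how far 1 contact dominates, whatever the window's level. At 127650652 on the minus strand of chromosome 12 it was 43.4, 53.2 and 39.4% in controls 1, 2 and 3, with 95% exact binomial intervals of 38.7 to 48.2, 47.9 to 58.5 and 28.0 to 51.8%. In QKI-5 replicates 1, 2 and 3 it was 28.3, 32.3 and 33.7%, with intervals of 27.3 to 29.3, 31.2 to 33.5 and 32.3 to 35.1%. The intervals cover counting error only, since copies of one cDNA may be among the events. The groups did not overlap, and the interval of the shallow control replicate 3 reached into the QKI-5 range. At 20704380 on the plus strand of the same chromosome the controls had 31.7, 36.0 and 23.5%, against 25.1, 37.6 and 32.6% with the antibody, and the groups overlapped.

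To compare libraries of unequal depth, each library's events in a window were thinned to the number in its smallest library, 64 events on chromosome 9 to 855 on chromosome 2, and the strongest position of that library was taken. The control share exceeded every QKI-5 share in 4 of 9 windows, those of chromosomes 2, 5, X and the minus strand of chromosome 12, and the reverse was found in 0. On chromosome X the libraries differed in their strongest position, and at either fixed position the unthinned shares overlapped. At 108297792 control 2 had 18.5% and QKI-5 replicate 3 had 19.6%. At 108297778 control 1 had 15.2% and QKI-5 replicate 2 had 16.1%. Of 21 windows with at least 20 events in each library, these 9 included, 33.3% had this order, and 3 of the 12 others did. The means in controls and QKI-5 libraries were 32.1 ± 5.45 and 19.6 ± 6.68% on chromosome 2, 22.8 ± 2.63 and 14.8 ± 1.83% on chromosome 5, and 25.8 ± 2.07 and 17.2 ± 2.33% on chromosome X (SD, n = 3 each). For the minus-strand window of chromosome 12 they were 45.2 ± 7.10 and 31.3 ± 2.32%. In the plus-strand window of chromosome 12 and on chromosome 1 the QKI-5 mean was the higher one, at 31.8 against 30.4% and 10.5 against 9.06%, both differences within the spread. Over the 9 windows the median difference was -8.04 percentage points (QKI-5 minus control).

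**Figure D3:**
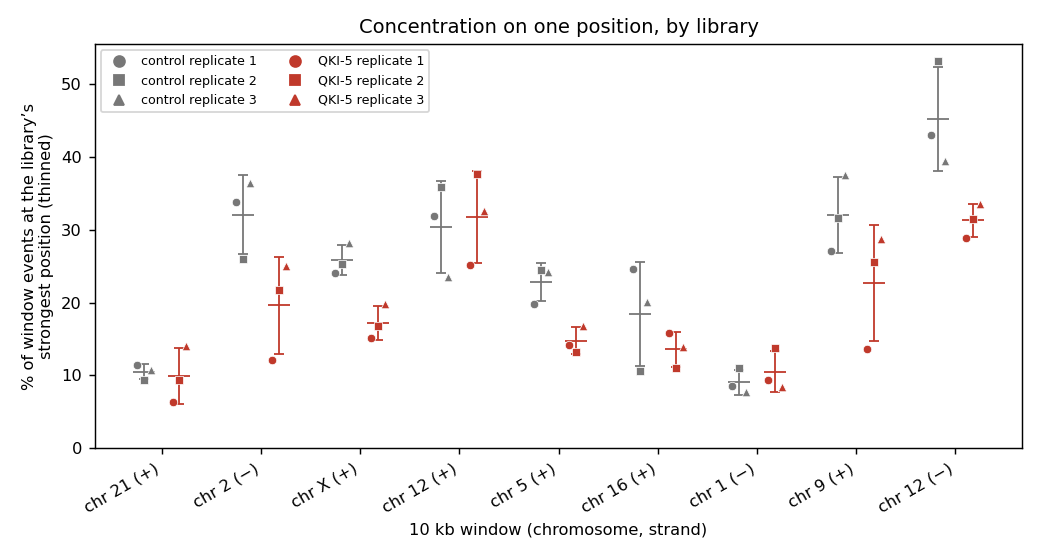
Percentage of a window's events at the strongest position of each library, after thinning all libraries to the same number of events in that window. Each symbol is 1 library, the wide bar the group mean and the whiskers 1 SD (n = 3). Control values lie above all QKI-5 values in 4 of the 9 windows and overlap with them in the other 5.

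At few single positions did the groups not overlap in the part of the window held. Of the 151 positions with at least 1% of their window's events on average, 7 were higher in every control (4.64%) and 8 in every QKI-5 library (5.30%). In the 12 other deep windows the figures were 3.66% and 6.10% of 164 positions, so the shares were near the background. The remaining 136 positions overlapped. Windows held as few as 64 events in a control, so overlap does not show that a position was unchanged. Among the 7 were the strongest positions of chromosomes 2, 5 and the minus-strand window of chromosome 12, described above. Next to the last of these, 127650650, which lies 2 nt away, held 0.457, 0.560 and 0% of the window in controls, against 1.54, 3.20 and 2.18% with the antibody. The controls held only 438, 357 and 71 events in that window, so their shares rest on few events. On chromosome 5 the neighbouring positions 71146768 and 71146769 were also higher in QKI-5 libraries, at 1.80 to 3.40% and 2.52 to 3.47%, against 0.340 to 1.38% and 1.36 to 1.89% in controls. These positions were picked from the 8, and nothing is read from them.

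The measured overlap of whole profiles was of similar size across groups and within them. The overlap of 2 libraries is the sum over positions of the smaller of the 2 shares, which is 100% for identical profiles and falls with sampling noise in shallow libraries. Over the 9 windows the median overlap was 65.5% between controls, 72.7% between QKI-5 libraries, 71.1% between a control and the QKI-5 library of the same number, and 66.4% across groups with other numbers. Counts were not thinned for these medians and the controls are shallow. They therefore cannot show whether the groups are as alike as replicates. QKI-5 replicates 2 and 3 were the most alike, with a mean of 79.7%. Control replicate 3, the smallest library, and QKI-5 replicate 1, the largest, were the least alike, with 50.7%. QKI-5 replicate 1 overlapped with the other QKI-5 libraries by 70.2 and 66.2%, and QKI-5 replicate 2 overlapped with controls 1 and 2 by 74.4 and 75.2%. QKI-5 replicate 1 stood apart in the width of its signal too, with a median of 27 nt for the interval holding 50% of a window's events, against 9 to 17 nt in the other 5 libraries. These widths are from counts that were not thinned, and QKI-5 replicate 1 was the largest library. The part of depth in them was not tested.

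**Figure D4:**
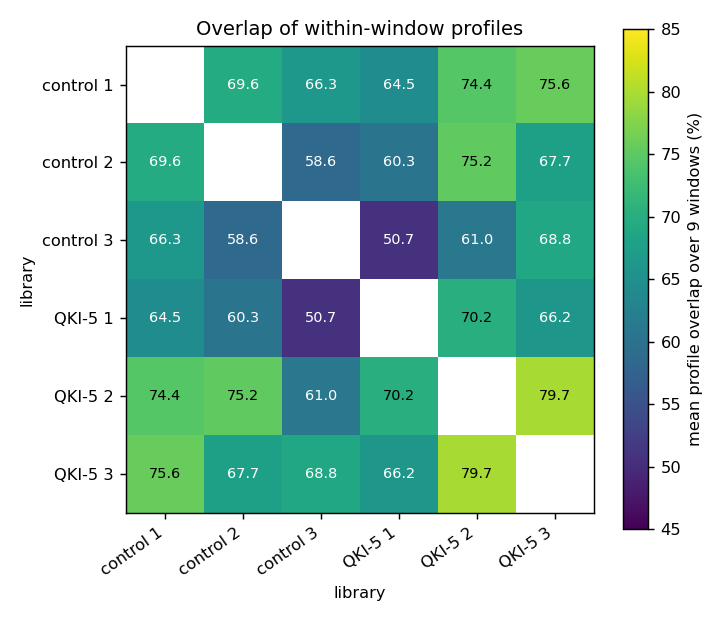
Mean overlap of the within-window profiles of each pair of libraries over the 9 windows, in percent, for 3 controls and 3 QKI-5 libraries on both axes. The highest value, 79.7%, is between QKI-5 replicates 2 and 3, and the lowest, 50.7%, between control replicate 3 and QKI-5 replicate 1. Pairs across groups reach 75.6%.

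In most windows the part of the pool overlapped between the groups. Of the events in the 9 windows, the chromosome 21 window took 24.2, 23.5 and 21.9% in controls 1, 2 and 3, and 32.5, 27.0 and 27.8% in QKI-5 replicates 1, 2 and 3. All QKI-5 values were above all controls. The chromosome 1 window showed the same order, at 4.47, 3.94 and 3.92% against 6.12, 5.48 and 5.87%. This order has no background share here, since the pool consists of the 9 windows, and nothing is read from it. The chromosome 2 window varied most between libraries of one group, from 10.9 to 33.7% in controls and from 8.25 to 21.9% in QKI-5 libraries. In the other windows the groups overlapped. These shares add up to 100% in each library, so a higher share in one window lowers the others.

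The signal lay almost wholly on 1 strand, and the neighbouring sequence held few events. On the opposite strand of the same windows, which the choice of windows did not use, 8 of 9 had no event in any library. The exception was chromosome 2, with 5 events beside 83899 on the minus strand (0.00596%). In the minus-strand window of chromosome 12, the one with the fewest events, 0 events beside 20532 allow an opposite-strand share of up to 0.0146%, with 3 events taken as the limit for a count of 0. That limit covers counting error only. No opposite-strand window had enough events to be tested by edgeR. The 10 kb on either side, on the same strand, held 43 events in all libraries together, 1 of them in a control, and 4 windows had none. The most was 18 events beside the chromosome 21 window, which itself held 188410.

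Events were stacked on few positions. In the 9 windows the controls averaged 13.6, 9.37 and 6.58 events per used position for replicates 1, 2 and 3, against 1.30, 1.61 and 1.62 over the whole library. In the QKI-5 libraries the averages were 95.9, 67.7 and 62.8, against 1.39, 1.72 and 1.75. The number of used positions grew far less than the events. The plus-strand window of chromosome 12 had 57 to 96 used positions in controls and 111 to 128 in QKI-5 libraries, although the latter held 18849 to 52850 events against 430 to 2109. Counted as positions, the 9 windows were 2.38 ± 1.09% of the control libraries and 0.138 ± 0.0825% of the QKI-5 libraries (SD, n = 3), a 17.2-fold difference, and on that scale edgeR called 8 of 9 windows lower and 0 higher, beside 0.319% and 0.126% of the 20702 windows tested. The windows were chosen on these libraries, so nothing is read from that count either. Depth differed between the groups along with this count, and its part in the position counts was not tested.

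Set beside the 12 other windows with at least 20 events in every library, the 9 had a narrower median footprint and fewer opposite-strand events. The interval holding 50% of the mean signal had a median width of 9 nt (range 2 to 518) in the 9 and 30.5 nt (2 to 3194) in the 12. Broad windows of chromosome 11 and the mitochondrial genome, 898 to 3194 nt wide, raised the median of the 12. The rest of the 12 were 2 to 47 nt wide, so a narrow footprint was not particular to the 9. Other measures of concentration were close in the sets. The median thinned share at the strongest position was 21.5% in the 9 and 20.7% in the 12. The median number of positions needed to reach 50% was 5 and 6.5. The opposite strand was empty in 8 of 9 and in 4 of 12, where it reached 28.2% in 1 mitochondrial window. The log2 ratio of mean EPM, QKI-5 over control, had a median of -1.18 (range -1.68 to -0.78) in the 9 and -0.87 (-2.55 to 0.98) in the 12. These ranges overlap, both sets were selected on event counts in these libraries, and no difference between the sets was tested.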

How the data were processed

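Each deposited file lists, for 1 library, crosslinked positions with a strand and a whole-number count of events. The counts are as the authors deposited them, without normalization. The tools were cutadapt and Bowtie with build hg19, per the submitters' processing notes. Versions, the merging of PCR copies by barcode and the placing of reads with several alignments are not stated in those notes or the files; the part of that placing in repeated sequence was not tested. Coordinates are hg19, counted from 1.

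Groups came from the titles. Events were added up in 10 kb windows of each strand and divided by library totals (EPM). All windows were fitted with edgeR 4.0.16 (R 4.3.3, limma 3.58.1; TMM, filterByExpr, group as the only term, Benjamini-Hochberg adjustment), tested on simulated data. Alternatives were other scalings, DESeq2 1.42.0, no filter, distinct positions, a replicate block and each library left out. Thinned values are means of 100 draws. In each window the strongest position and stretch, and over all windows the 5 strongest positions, are named. Other steps ran in Python 3.11.15 (pandas 2.3.3, numpy 2.4.6, matplotlib 3.10.9, scipy 1.17.1). Windows and measures were chosen with earlier results of these data known.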

Additional observations from a re-analysis of the deposited data

How the results depend on the processing

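The ratio of QKI-5 to control for the share of events in the 9 windows was 0.416. It was 0.0581 with distinct positions and ran from 0.314 to 0.502 with 1 library left out (lowest without QKI-5 replicate 2, highest without control replicate 2). With the ratio taken within replicate numbers (replicate block) it was 0.403. Leaving out 1 window, the mitochondrial genome or the strongest positions kept it between 0.388 and 0.451. The number of windows called lower was 0 in edgeR and 8 with distinct positions, and with 1 library left out it ran from 0 to 1 (the chromosome X window, without QKI-5 replicate 2, a fit that called 9.36% of its 951 windows lower). It was 0 in the 6 fits with library totals, DESeq2 size factors, the DESeq2 Wald test, no filter or the replicate block and in the edgeR fit reported; the number called higher was 0 in all.

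Fitted log2 fold changes turned positive without the low-count filter on chromosome 21 (0.26), on both strands of chromosome 12 (0.12 plus, 0.05 minus), and on chromosomes 16 (0.16), 1 (0.43) and 9 (0.21), and under the replicate block on chromosome 1 (0.04). With 1 library left out they ran from -1.34 to 0.44 on chromosome 21, from -1.68 to 0.22 on the plus and -1.82 to 0.29 on the minus strand of chromosome 12, from -1.93 to 0.20 on chromosome 5, from -1.36 to 0.45 on chromosome 16, from -1.16 to 0.67 on chromosome 1 and from -1.67 to 0.38 on chromosome 9. The median of all windows moved between 0.22 and 6.69 over these fits, and the cause was not tested. Same-numbered libraries deviated together with r = -0.00, 0.10 and 0.07 over 29960 windows, and control replicate 1 did not correlate best with its own. Pairs of other numbers gave r from -0.11 to 0.06. The controls were shallow, so these values cannot tell whether same-numbered libraries form pairs. With the block, edgeR called 0 windows of the whole genome, with 2195 at an unadjusted p under 0.05, against 32 lower and 226 higher without it. Over all windows, library totals gave 58 lower and 23 higher, DESeq2 size factors 35 and 85, the DESeq2 Wald test 150 and 431, no filter 6 and 159, and distinct positions 66 and 26. Leaving out 1 library gave 8 to 89 lower and 28 to 831 higher, with 892 to 54850 windows tested. The median difference in the share at the strongest position stayed between -9.48 and -5.95 percentage points. The depth of the controls, where 1 event is 7.25 to 33.5 EPM, limits these values. Of the opposite-strand windows, only that of chromosome 2 was tested in any fit, the one without the low-count filter, where edgeR did not call it (log2 fold change -2.35, adjusted p = 0.861).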
